A study of Arabidopsis thaliana with 59 samples.

Results

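The comparison asked which 22-nt small RNAs of the Arabidopsis thaliana double mutant ski2-2 dcl4-2 were lost when DCL2 was removed as well. Its members were all genes with an authors' mean of at least 5 units in ski2-2 dcl4-2 or in ski2-2 dcl4-2 dcl2-1, which gave 6807 of the 32375 genes with a value. Small RNA was taken from the aerial parts of 20-day-old plants, which had spent 6 days on MS medium and 14 days in soil. Both genotypes carry the mutant alleles ski2-2 and dcl4-2, and the triple mutant carries dcl2-1 in addition, with no other difference given and 4 libraries each. Sets of 4 libraries of ski2-2, ski2-2 dcl2-1, ein5-1 dcl4-2 and ein5-1 dcl4-2 dcl2-1 were used for comparison, and the authors' means of Col-0 (the wild type), dcl2-1 and dcl4-2 are given beside them. The alleles were present throughout the plant, so every value is an average over all aerial tissues, in which fewer cells of a type and less RNA per cell cannot be told apart.

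Plant Dicer-like (DCL) enzymes cut double-stranded RNA into small RNAs of set lengths. DCL4 makes 21-nt siRNAs, including the trans-acting and phased kind, and DCL2 makes 22-nt siRNAs and can act on substrates that DCL4 leaves uncut. SKI2 is an RNA helicase that feeds the cytoplasmic exosome, which degrades mRNA from its 3′ end, and EIN5 is the exoribonuclease that degrades it from the 5′ end. mRNA that escapes this decay, such as the fragments left by microRNA cleavage, can be copied by RNA-dependent RNA polymerases and diced into siRNAs.

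Several of the strongest 22-nt loci of the double mutant were targets of conserved microRNAs. The sequences below show the microRNA and the stretch of the target mRNA facing it, for genes whose 22-nt reads are described further on. The loss at these genes differed widely in size. The 5 class III HD-ZIP genes summed to 151406 units in the double and 103 in the triple mutant. AGO1 fell from 124 to 7.44 units. Sequences are RefSeq (TAIR10.1), 5′ to 3′, with the microRNA seed (bases 2 to 8) and the target bases facing it in capitals. The microRNA miR166a-3p, from chr2:19176241-19176261 on the plus strand, faces the class III HD-ZIP genes:
miR166a-3p: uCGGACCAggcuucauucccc
PHB: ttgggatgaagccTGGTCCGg
PHV: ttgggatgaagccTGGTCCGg
REV: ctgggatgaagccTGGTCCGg
ATHB8: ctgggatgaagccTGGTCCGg
ATHB15: ctggaatgaagccTGGTCCGg

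All 5 sites lie in coding sequence and are joined across an intron, so the genomic span is longer than the site. The spans are chr2:14642530-14642666 for PHB, chr1:10799330-10799445 for PHV, chr4:15866872-15866974 for ATHB8 and chr1:19412976-19413085 for ATHB15, all on the minus strand, and chr5:24398787-24398898 on the plus strand for REV. The seed is fully paired at each of them, and ATHB15 has 3 mismatches to miR166a-3p over the whole site where the other sites have 4, with a G:U pair counted as a mismatch. The next pairs show the argonaute genes AGO2 (3′ UTR, chr1:11185223-11185243, plus strand) and AGO1 (coding sequence, chr1:17891529-17891549, minus strand), which are under feedback by microRNAs.
miR403-3p: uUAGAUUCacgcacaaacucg
AGO2: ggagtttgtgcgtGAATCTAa
miR168a-5p: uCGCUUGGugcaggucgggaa
AGO1: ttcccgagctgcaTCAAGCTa

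Targets in auxin signalling follow, with ARF6 (chr1:10686478-10686498, minus strand), ARF10 (chr2:12115741-12115761, plus strand), AFB2 (chr3:9870237-9870258, plus strand) and AFB3 (chr1:4369085-4369106, minus strand). All of these sites lie in coding sequence. Of the microRNAs printed here, miR393a-5p has a length of 22 nt and each of the others 21 nt.
miR167a-5p: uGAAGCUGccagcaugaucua
ARF6: gagatcaggctggCAGCTTGt
miR160a-5p: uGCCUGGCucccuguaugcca
ARF10: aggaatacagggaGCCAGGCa
miR393a-5p: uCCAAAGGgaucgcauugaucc
AFB2: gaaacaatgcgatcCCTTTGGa
AFB3: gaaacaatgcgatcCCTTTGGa

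The table gives reads per gene and not their position within it, so whether reads lay beside these sites was not tested.

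Values are means of 22-nt reads per gene in scaled units, which the file headers call TPM. Summed over all genes they came to 967422 units in ski2-2 dcl4-2 and to 252236 in ski2-2 dcl4-2 dcl2-1, beside 181889 in Col-0, 182056 in ski2-2 and 185706 in ski2-2 dcl2-1. The 10 highest genes held 68.8% of the sum in the double mutant and 30.6% in the triple mutant. Library values could be recovered for 99.34% of genes in the double and 99.54% in the triple mutant, but these genes held 11.08% and 45.98% of the summed means, since the highest genes were beyond recovery. A recovered library held 22454 to 97318 reads in the double mutant, with 73010 in the second lowest, and 62526 to 75224 in the triple mutant. For genes that were not recovered, only the authors' mean and the authors' deposited comparison are available, with no SD. The means of 22-nt reads at DCL2, SKI2 and DCL4 lay between 0 and 4.36 units in these genotypes and those at EIN5 at 3.02 and 6.08, so they do not check the labels. Of the 5 floral genes examined, AP1, AP3, PI and SEP3 were at 0 in both genotypes, and AG stood at 1.19 and 0.470 units. Such genes mark a tissue by their mRNA, so 22-nt reads over them do not check the tissue sampled.

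**Figure D1:**
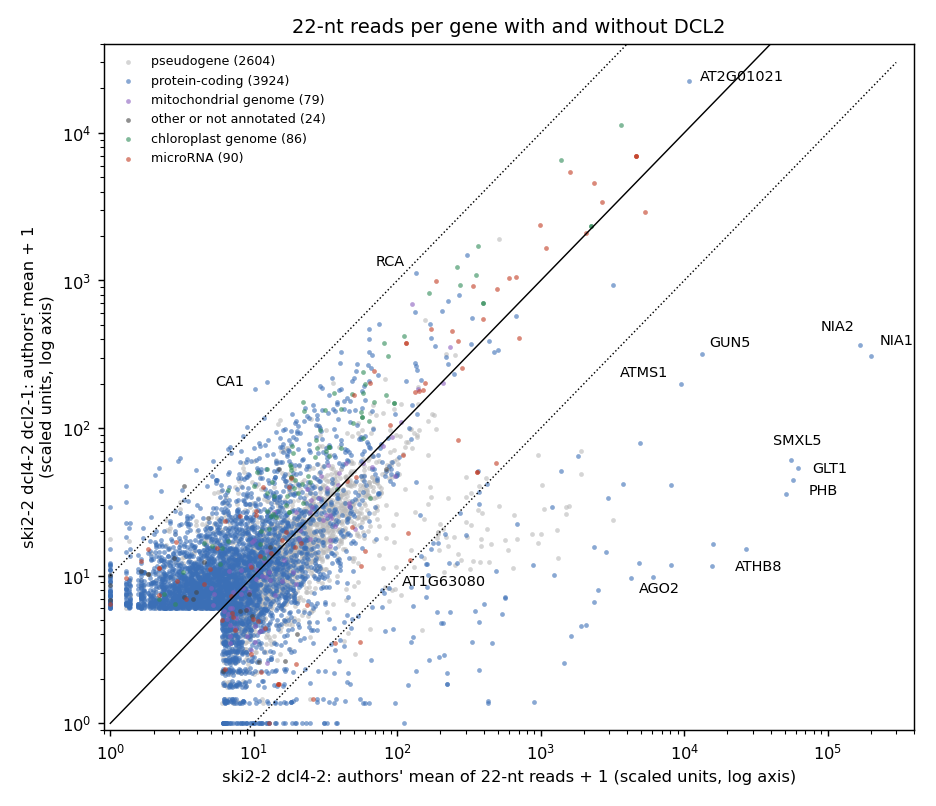
Authors' mean of 22-nt reads plus 1 for the 6807 members in ski2-2 dcl4-2 (x axis) and ski2-2 dcl4-2 dcl2-1 (y axis), both in scaled units on log axes, coloured by annotation class. The solid line marks equal values and the dotted lines a 10-fold difference; NIA1, NIA2, GLT1, PHB, SMXL5 and ATHB8 lie far below the lower dotted line.

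Without DCL2 most 22-nt reads of a small set of very strong loci were gone. Using the ratio of means plus 1, 210 members (3.09%) were at least 10-fold lower and 1072 (15.7%) at least 2-fold lower in the triple mutant. In the other direction, 1845 members (27.1%) were at least 2-fold and 41 (0.602%) at least 10-fold higher, and 3890 lay within 2-fold. Over all members the median log2 of the ratio of double to triple mutant was −0.19. Setting the scale by the summed microRNA loci, which multiplies the means of the triple mutant by 0.706, moved this median to 0.26. On that scale the balance turned, with 1810 members at least 2-fold lower and 1157 at least 2-fold higher.

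By the authors' deposited table, 919 genes (7.3%) of 12581 with an adjusted p-value were lower and 1123 (8.93%) higher in the triple mutant at an adjusted p below 0.05. Among the 6802 members with such a value, 895 (13.2%) were lower and 1068 (15.7%) higher. These shares are the background for the counts of list members given below. With limma on the recovered libraries, 630 (4.44%) of 14190 genes tested were lower and 1043 (7.35%) higher, of which 612 and 1012 were members. With the library values scaled instead by the recovered microRNA loci alone, a scale that moves the values the opposite way from the 0.706 of the means, the limma counts were 429 lower and 1389 higher. The libraries of the 2 genotypes did not overlap for 2293 (16.2%) of the genes tested. Sums by class went in different directions. The 3924 protein-coding members summed to 813331 units in the double and 93438 in the triple mutant and the 2604 pseudogene members to 81143 and 44701, while the 90 microRNA loci stood at 37951 and 53791 and the 86 chloroplast genes at 13920 and 35609.9 units.

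The 210 members that were at least 10-fold lower comprised 148 protein-coding genes, 58 pseudogenes and 4 microRNA loci. Their median mean was 190.2 units in the double mutant and 5.11 in the triple mutant, a gap that follows from how they were chosen. It was 6.802 in Col-0, 13.02 in dcl4-2, 7.73 in ski2-2 and 7.96 in ski2-2 dcl2-1. In 82 of the 210 genes the triple mutant still stood above Col-0. At the edge of the rule, AT1G07820 and SQS1 were just inside with 5.0003 units in the triple mutant, and AGL92 and AT1G42440 were just outside with 4.9996 units in the triple and 4.995 in the double mutant.

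The largest loss was at the nitrate reductases, which reduce nitrate to nitrite in the first step of nitrate assimilation. NIA1 (AT1G77760) had an authors' mean of 198967 units in the double and 307 in the triple mutant, and NIA2 (AT1G37130) 168986 and 362. Together they held 38.0% of all units in the double mutant and 0.265% in the triple mutant. In the authors' deposited table their log2 folds were 9.35 and 8.88, with adjusted p listed as 0. In the triple mutant both genes remained above Col-0, where the authors' means were 57.9 and 77.2 units, and above ski2-2, where they were 187 and 239. NIA1 and NIA2 share 0 stretches of 22 bases, so the same read cannot match both without a mismatch.

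Other genes of nitrogen assimilation did not move as one. Of 12 genes on this list, 8 were members. Of these, 2 (25.0%) were lower and 4 (50.0%) higher in the triple mutant by the authors' deposited table, beside 13.2% and 15.7% of all members. GLT1, the NADH-dependent glutamate synthase, fell from 62348 to 53.1 units, a log2 fold of 10.105 with an adjusted p of 3.65e-186 in the authors' deposited table. ASN1, an asparagine synthetase, stood at 12.2, 8.36, 5.84 and 4.74 units in the double mutant and at 0 in all 4 triple libraries, with an adjusted p of 0.00171 by limma. ASN1 was a member through the double mutant alone, so membership itself favoured its fall. NIR1, the nitrite reductase that follows NIA1 and NIA2 in the pathway, stood at 31.1, 18.1, 33.6 and 52.2 units in the double and 33.4, 19.2, 34.2 and 35.7 in the triple mutant. The NIR1 libraries overlapped, with a log2 difference of 0.08 ± 0.29 (SE, n = 4 and 4) and an adjusted p of 0.904 by limma.

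GLN1;2, a cytosolic glutamine synthetase, rose with libraries at 8.88, 8.36, 5.84 and 9.48 units in the double and 63.7, 39.97, 49.6 and 39.5 in the triple mutant. NRT1.1, a nitrate transporter and sensor, rose from 8.88, 1.39, 7.30 and 9.48 to 33.4, 20.8, 29.1 and 26.3 units. No library of one genotype reached the range of the other at either gene. The log2 differences (double minus triple) were −2.42 ± 0.36 for GLN1;2 and −2.06 ± 0.45 for NRT1.1, with adjusted p of 9.78e-09 and 2.23e-04 by limma. GLN2, the plastid glutamine synthetase, and GLU1, the ferredoxin-dependent glutamate synthase, went from 26.8 to 122 and from 114 to 207 units, with adjusted p of 7.69e-18 and 5.41e-07 in the authors' deposited table. The list median of log2 was −1.03, beside −0.19 over all members.

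The class III HD-ZIP transcription factors, which set the upper side of leaves and pattern the vasculature, were all 5 lower without DCL2. PHB fell from 56875 to 43.2 units, REV from 51142 to 35.02, ATHB8 from 26908 to 14.1, PHV from 15586 to 10.6 and ATHB15 from 894 to 0.400. Log2 folds in the authors' deposited table were 10.25, 10.35, 10.94, 10.52 and 10.03, with an adjusted p listed as 0 for ATHB8 and between 1.38e-278 and 1.19e-33 for the others. The order of levels in the double mutant was therefore PHB, REV, ATHB8, PHV and ATHB15, without a library spread to say which neighbours differ. The list median of log2 was 10.39.

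The authors' means of these genes in the other genotypes were far below those of ski2-2 dcl4-2, and for PHB, REV, ATHB8 and PHV those of ski2-2 dcl2-1 were near those of the triple mutant. PHB stood at 1.83 units in Col-0, 6.42 in dcl4-2, 12.8 in ski2-2 and 43.8 in ski2-2 dcl2-1, the last close to its 43.2 in the triple mutant. REV stood at 36.0 and ATHB8 at 18.0 units in ski2-2 dcl2-1, beside 35.02 and 14.1 in the triple mutant. PHB and PHV share 125 stretches of 22 bases (2.49% of those of PHB), and PHB and REV share 5. Where the reads lie within the genes is not known, so the share of reads that match more than 1 of them was not tested. None of the 7 MIR166 loci, a to g, passed the test in the authors' deposited table, whereas both MIR165 loci, whose microRNA belongs to the same family, were higher in the triple mutant. MIR165b rose from 987 to 2360.4 units (adjusted p = 3.70e-04, authors' deposited table), and MIR165a had an adjusted p of 4.64e-09 in that table. MIR166a stood at 1095 and 1646 units with an adjusted p of 0.122, and MIR166e at 4613 and 6931 with an adjusted p of 0.28, in the authors' deposited table. The mature miR166a-3p has 21 nt, so these 22-nt reads do not give its level.

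**Figure D2:**
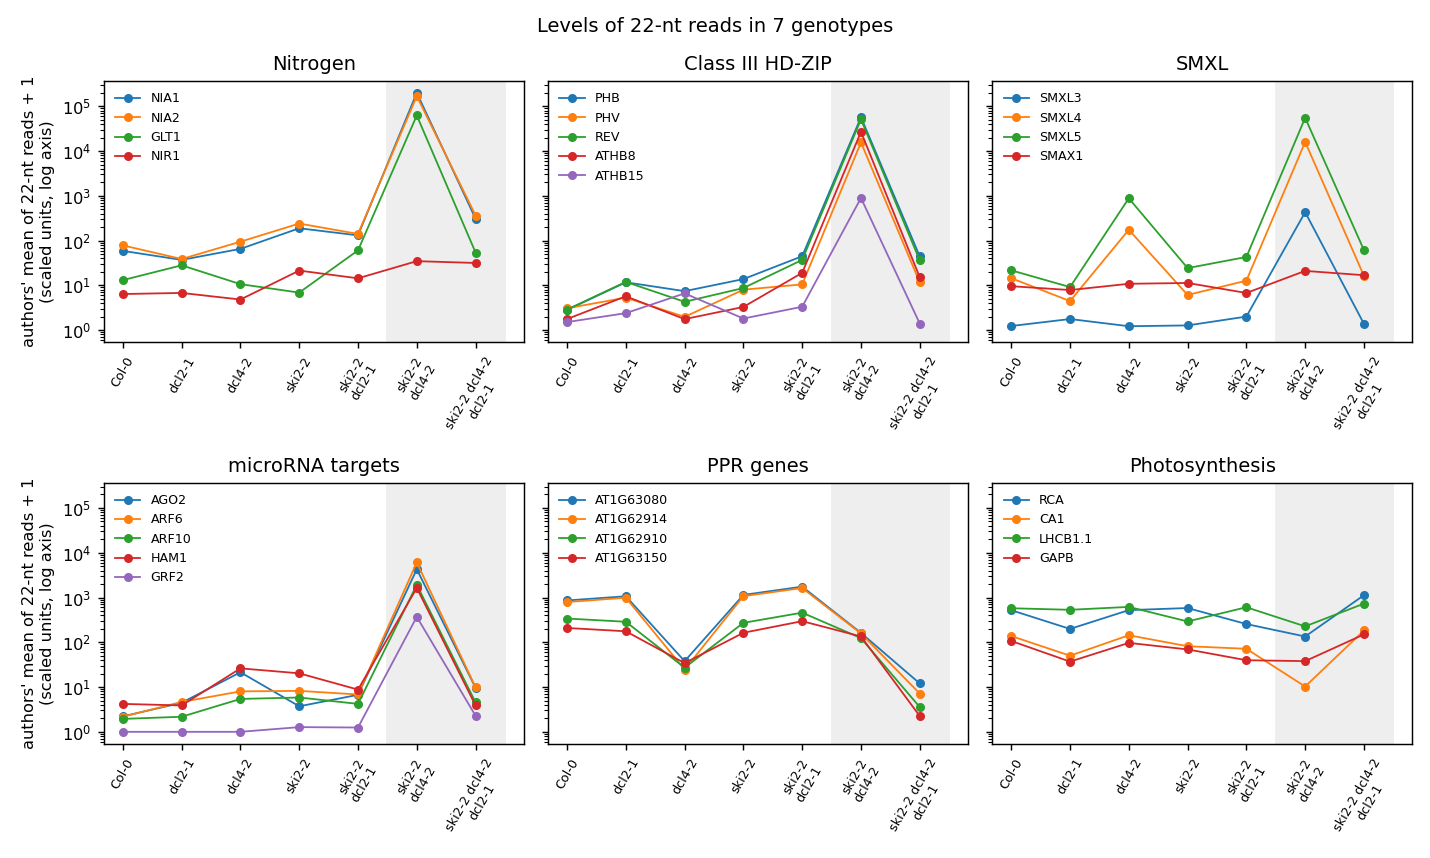
Authors' means of 22-nt reads plus 1 (scaled units, log axis) of selected genes in 7 genotypes, with the 2 genotypes compared shaded. NIA1, NIA2, GLT1, the class III HD-ZIP genes and SMXL3 to SMXL5 peak in ski2-2 dcl4-2, the PPR genes are lower in dcl4-2 than in Col-0, and RCA and CA1 are lowest in ski2-2 dcl4-2.

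SMXL genes encode proteins related to heat shock proteins of the HSP101 type that act in strigolactone and karrikin signalling, and SMXL3, SMXL4 and SMXL5 act in phloem formation. Of the 8 family genes 6 were members. Of these, 4 (66.7%) were lower and 1 (16.7%) higher by the authors' deposited table, beside 13.2% and 15.7% of all members. SMXL2 and SMXL3 reached 5 units in the double mutant alone and SMXL7 in the triple mutant alone, so membership itself favoured their directions. SMXL5 fell from 55180.1 to 60.3 units, SMXL4 from 15964 to 15.3 and SMXL3 from 430.3 to 0.379, with adjusted p listed as 0 for the first pair and 7.56e-25 for SMXL3 in the authors' deposited table. SMXL5 and SMXL4 already stood at 879 and 173 units in dcl4-2, against 20.7 and 13.5 in Col-0.

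SMXL2, of the karrikin branch, fell from 27.8, 25.1, 17.5 and 28.4 units to 4.55, 1.60, 5.13 and 1.88, with no overlap and an adjusted p of 1.96e-05 by limma. Its partner SMAX1 stood at 20.0 and 15.8 units with an adjusted p of 0.8 in the authors' deposited table. SMXL7, a repressor of strigolactone signalling, was higher in the triple mutant at 4.55, 22.4, 10.3 and 5.64 units against 4.44, 0, 0 and 0. The adjusted p of SMXL7 was 0.00459 by limma and 0.0171 in the authors' deposited table, and without triple library B it did not pass, at a log2 difference of −2.29. Another phloem gene, the receptor kinase BAM3, fell from 8105 to 10.8 units with an adjusted p of 2.14e-232 in the authors' deposited table.

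Other members with a large difference in mean were GUN5 and ATMS1. GUN5, the H subunit of magnesium chelatase in chlorophyll synthesis, fell from 13371 to 316 units, and the methionine synthase ATMS1 from 9537 to 198, both with adjusted p listed as 0 in the authors' deposited table. Both were above 100 units in Col-0 (GUN5 206, ATMS1 111), and in the triple mutant they were higher than there. Among genes chosen after their values were seen, the acyltransferase DGAT3 went from 8056 to 40.4 units and the ubiquitin ligases UPL2 and UPL1 from 3768 to 41.1 and from 2939 to 32.7. UPL2 and UPL1 share 33.0% of the 22-base stretches of UPL2, so part of their reads cannot be assigned to either. ATMS1 shares 176 such stretches (3.66%) with AT3G03780, which fell from 4915 to 78.2 units.

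Genes of microRNA feedback fell at all 3 loci tested. AGO2, which miR403 targets, fell from 4283 to 8.61 units, with an adjusted p of 3.78e-174 in the authors' deposited table. AGO1, the main effector of microRNAs, stood at 127, 149, 97.8 and 123 units in the double and 4.55, 11.2, 10.3 and 3.76 in the triple mutant. Every double library lay above every triple library, and the log2 difference was 3.996 ± 0.297 (SE, n = 4 and 4; adjusted p = 1.22e-29, limma). DCL1, which makes microRNAs, fell from 26.6 ± 5.98 to 3.29 ± 1.81 units (SD, n = 4 each; adjusted p = 6.13e-06, limma).

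Auxin signalling genes under microRNA control fell as well. The receptor gene AFB2 went from 129 to 5.25 units, with an adjusted p of 2.46e-27 in the authors' deposited table. AFB3 stood at 107, 103, 62.8 and 47.4 units in the double and 4.55, 6.39, 11.97 and 3.76 in the triple mutant, with no overlap and an adjusted p of 7.96e-18 by limma. TIR1 passed in the authors' deposited table (21.9 to 9.66 units, adjusted p = 0.0104) but not by limma (adjusted p = 0.114), and its libraries overlapped. Of 8 auxin response factors 7 were members and 6 were lower by the authors' deposited table, beside 13.2% of all members. ARF8, ARF10, ARF16 and ARF17 reached 5 units in the double mutant alone, so membership itself favoured their fall. ARF6 fell from 6077 to 8.84 units, ARF10 from 1913 to 3.53 and ARF8 from 535 to 4.47, with adjusted p of 2.08e-193, 7.73e-82 and 7.91e-59 in that authors' deposited table. ARF2 did not pass, at 20.4 and 25.7 units (adjusted p = 0.699, authors' deposited table), and ARF4, which like ARF2 is a target of trans-acting siRNAs, was near the threshold at 16.3 and 7.12 units (adjusted p = 0.0498) and did not pass by limma (adjusted p = 0.0927).

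A further list held 28 targets of the microRNAs miR156, miR159, miR164, miR171, miR172, miR319 and miR396, of which 20 were members. All 20 were lower by the authors' deposited table, beside 13.2% of all members, and 14 of the 16 tested by limma passed. Most of them reached 5 units in the double mutant alone, so membership itself favoured a fall. Of the listed genes that were not members, TCP24, TCP10 and SNZ did not pass in that table. TCP3, SPL3, SPL15, ORE1 and TOE3 have no adjusted p there. HAM1, a GRAS regulator of shoot meristems, fell from 1637 to 2.88 units, GRF2, a growth regulator, from 369 to 1.28, and SPL2, a phase-change factor, from 164 to 1.68. The leaf-shape factor TCP2 stood at 57.8, 87.7, 48.2 and 66.4 units in the double and 1.52, 0, 3.42 and 1.88 in the triple mutant. MYB33, a target of miR159, stood at 36.6, 52.9, 45.2 and 80.6 units and at 0, 0, 0 and 1.88. The groups did not overlap at TCP2 or MYB33, with adjusted p of 3.88e-18 and 2.06e-16 by limma. The list median of log2 was 4.02, and 3.72 with the 5 members at 0 in the triple mutant set to the floor of 3 reads over the group.

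Among microRNA loci, 90 of 178 were members, with 21 (23.3%) lower and 30 (33.3%) higher in the triple mutant by the authors' deposited table. Over all members these shares were 13.2% and 15.7%. MIR156a went from 490.2 to 56.7 units. MIR831 went from 131, 134, 102 and 123 units to 15.2, 17.6, 8.55 and 5.64, with no overlap and an adjusted p of 3.34e-27 by limma. MIR831 was named for passing this test without overlap. MIR159b rose from 1599 to 5411 units and MIR850 from 185 to 989, with adjusted p of 1.63e-45 and 1.22e-28 in the authors' deposited table. MIR403 did not pass (2690.0 and 3389.8 units, adjusted p = 0.189), and MIR168a rose from 598 to 1042 (adjusted p = 0.0201), both by the authors' deposited table. The median log2 over the microRNA loci was −0.30 as deposited and 0.18 with the scale that these loci set.

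PPR genes of chromosome 1, which encode RNA-binding proteins of organelles, are known sources of phased siRNAs. Of 12 such genes 11 were members, and all 11 were lower by the authors' deposited table, beside 13.2% of all members. By limma 8 of 8 tested passed. Most of the 11 reached 5 units in the double mutant alone, so membership itself favoured a fall. AT1G63150 stood at 98.8, 153, 142 and 142 units in the double and at 1.52, 1.60, 0 and 1.88 in the triple mutant. No library overlapped, and the log2 difference was 6.00 ± 0.41 (SE, n = 4 and 4; adjusted p = 3.49e-33, limma). AT1G63150 was among the genes named for passing this test without overlap. These loci had a different starting point from the HD-ZIP genes. AT1G63080 had 858 units in Col-0, 1142 in ski2-2 and 1747 in ski2-2 dcl2-1, 36.8 in dcl4-2, 161 in ski2-2 dcl4-2 and 11.03 in the triple mutant. AT1G63080 shares 9.68% of its 22-base stretches with AT1G63400, so the members of this list are not independent of each other.

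Of the 10 genes of the anthocyanin list 8 were members. Of these, 7 were lower and 0 higher by the authors' deposited table, beside 13.2% and 15.7% of all members. PAP2 and UF3GT reached 5 units in the double mutant alone, so membership itself favoured their fall. The MYB regulators PAP1 and PAP2 fell from 560.4 to 6.10 and from 26.7 to 0.470 units, with adjusted p of 3.26e-67 and 2.55e-07 in the authors' deposited table. The late enzyme gene DFR stood at 51.1, 61.3, 43.8 and 66.4 units in the double and 9.10, 19.2, 10.3 and 18.8 in the triple mutant, and LDOX at 45.5, 54.3, 36.5 and 56.9 against 15.2, 19.2, 10.3 and 20.7. Neither overlapped, and adjusted p were 7.00e-08 and 3.57e-05 by limma. CHS, the first enzyme of the pathway, did not pass at 136 and 123 units (adjusted p = 0.416, authors' deposited table), although its mean was 110.0 units in ski2-2 and 3.07 in ski2-2 dcl2-1. The list median of log2 was 1.77.

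**Figure D3:**
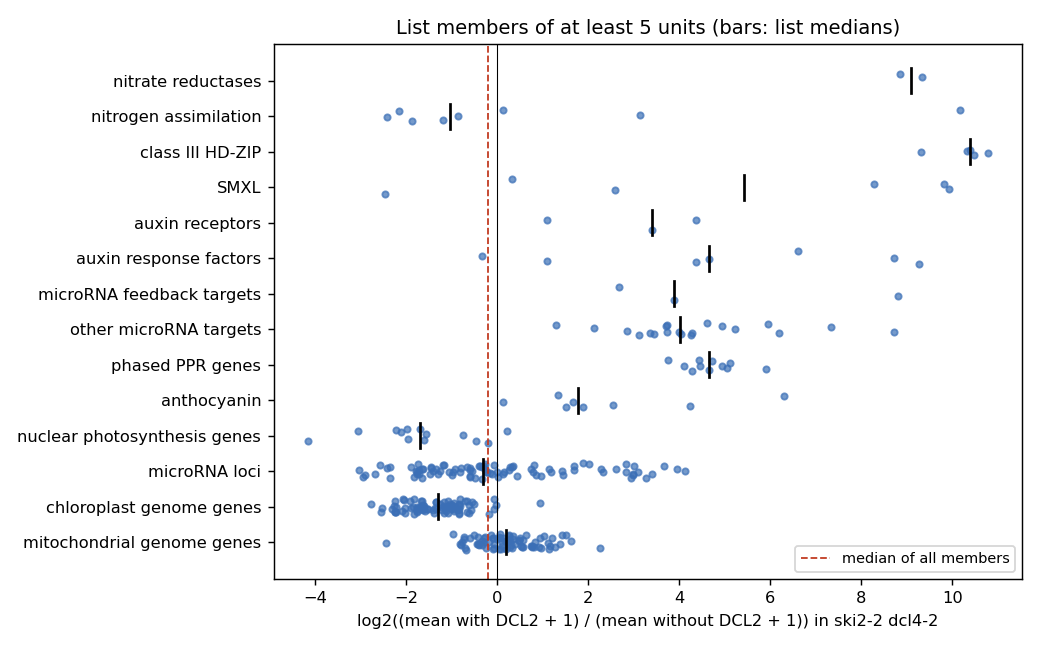
Log2 of the ratio of means plus 1, ski2-2 dcl4-2 over ski2-2 dcl4-2 dcl2-1, for each list member of at least 5 units, with a bar at each list's median and a dashed line at the median of all members (−0.19). Class III HD-ZIP genes sit near 10.39, photosynthesis and chloroplast genes mostly below 0.

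Pseudogenes, a class that here includes transposon remnants, made up 58 of the 210 members with at least 10-fold lower values. That is 2.23% of the pseudogene members, beside 3.09% of all members. Chosen after their values were seen, AT3G43862 went from 3166 to 22.97 units, AT5G31719 from 1906 to 47.8 and AT5G29975 from 1912 to 69.2. Reads at these loci are hard to place. In the median, 27.3% of the 22-base stretches of these 58 pseudogenes occur once in the genome, and 52 of them lie under 50%, whereas for the 148 protein-coding genes the median was 98.6%. The pair AT3G44570 and AT3G44580 was also strong in Col-0, at 827 and 485 units, and went from 887 and 560.2 in the double to 10.9 and 6.22 in the triple mutant. AT3G44570 shares 202 of its 22-base stretches (14.3%) with AT3G44580, so a read from these stretches matches both.

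Photosynthesis genes were for the most part higher in the triple mutant. Of 13 nuclear photosynthesis genes, all members, 11 (84.6%) were higher and 1 (7.69%) lower by the authors' deposited table. Over all members these shares were 15.7% and 13.2%. Of the 11, RBCS2B turned with the scale set by microRNA loci. CA1, a carbonic anhydrase, rose from 9.27 to 182 units, RCA, which activates Rubisco, from 134 to 1125, and LHCB1.1, a light-harvesting protein, from 226 to 731. Their adjusted p in the authors' deposited table were 4.06e-39, 3.00e-168 and 2.86e-63. RBCS1A, a small subunit of Rubisco, was the one that fell, from 667 to 571 units (log2 fold 0.30, adjusted p = 0.00572, authors' deposited table), and RBCS1B did not pass (327 and 373 units, adjusted p = 0.659). RBCS2B rose from 218 to 301 units as deposited (adjusted p = 0.00802, authors' deposited table), but with the scale set by microRNA loci its log2 ratio turned from −0.46 to 0.04. The list median of log2 was −1.69 as deposited and −1.19 on that scale.

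Library values were available for several genes of this kind. The 3 given here were named for passing the limma test without overlap, so their separation follows from that choice. GAPB, a Calvin cycle enzyme, stood at 27.8, 41.8, 30.6 and 47.4 units in the double and 114, 174, 156 and 152 in the triple mutant. PSAK, a subunit of photosystem I, stood at 6.66, 18.1, 4.38 and 14.2 units and at 129, 81.5, 142 and 113. AGT, a photorespiratory aminotransferase, stood at 18.9, 20.9, 20.4 and 14.2 units and at 115, 115, 113 and 99.6. At all 3 genes every triple library lay above every double library, with log2 differences (double minus triple) of −2.0 ± 0.177, −3.46 ± 0.28 and −2.52 ± 0.232 and adjusted p of 3.00e-22, 1.49e-25 and 6.48e-21 by limma. In Col-0 the authors' means were 106 units for GAPB and 66.7 for PSAK, between the levels of the 2 genotypes.

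**Figure D4:**
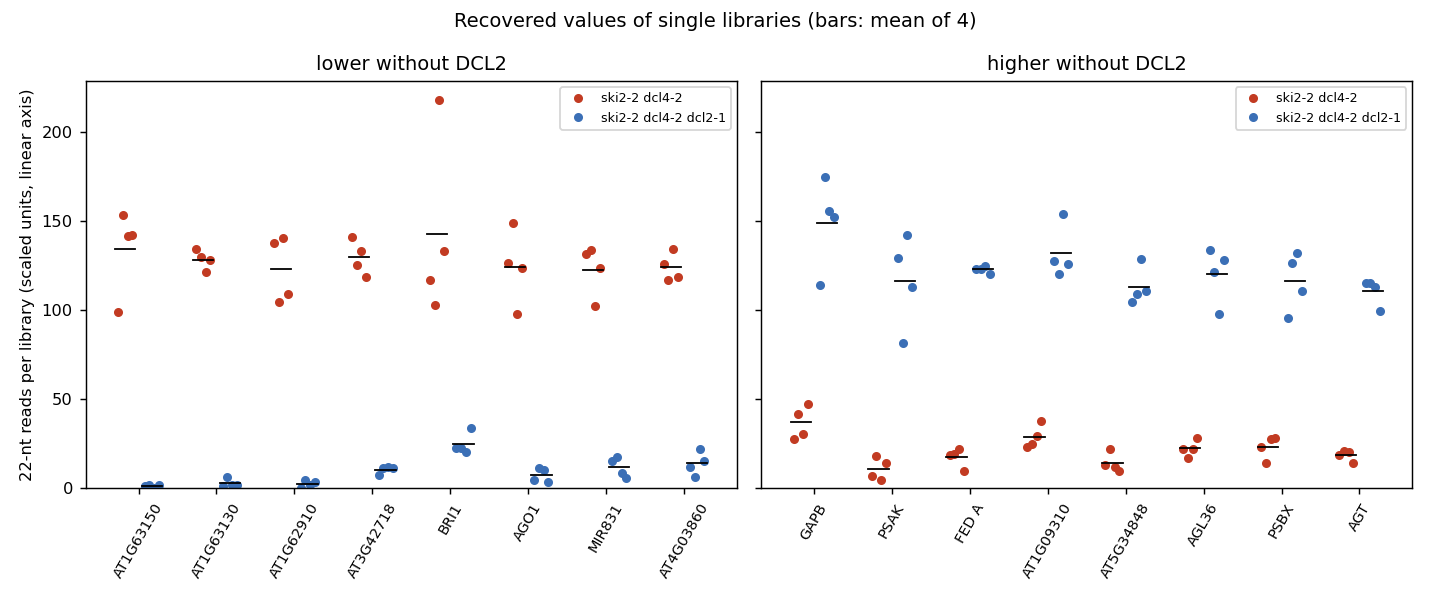
Recovered values of single libraries (scaled units, linear axis) for 8 genes lower and 8 genes higher without DCL2, with a bar at each mean of 4. The genes were chosen for libraries that do not overlap, which held for 16.2% of all genes tested; AGO1 spans 97.8 to 149 against 3.76 to 11.2 units.

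Genes of the chloroplast genome moved the same way, with 61 of 86 members (70.9%) higher and 1 (1.16%) lower by the authors' deposited table. Over all members these shares were 15.7% and 13.2%. The large subunit of Rubisco (ATCG00490) rose from 1386 to 6543 units, ATCG00020 from 3635 to 11254 and ATCG00280 from 365 to 1715. By the fold of 2, 59 were higher as deposited and 37 with the scale set by microRNA loci. Of the mitochondrial genes 8 of 79 members were lower and 3 higher by the authors' deposited table, beside 13.2% and 15.7% of all members. The locus with most units in the triple mutant, AT2G01021, stood at 10842 units in the double and 22374 in the triple mutant, and 0% of its 22-base stretches occur once in the genome. Over the 1845 members at least 2-fold higher, the median mean was 2.81 units in the double and 10.9 in the triple mutant. It was 5.97 in Col-0 and 6.14 in ski2-2. The gap between double and triple mutant follows from how these members were chosen.

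Whether the effect of DCL2 depended on DCL4 was tested as an interaction over the libraries of ski2-2, ski2-2 dcl2-1 and both genotypes above. Of 13260 genes tested by limma, the fall without DCL2 was larger in the absence of DCL4 for 614 (4.63%) and smaller or turned for 1053 (7.94%), of which 554 and 958 were members. With the libraries scaled by recovered microRNA loci the split was 181 and 3120. At AGO1 the log2 difference between plants with and without DCL2 was −0.12 ± 0.26 with DCL4 present and 3.996 ± 0.297 without it, a difference of 4.11 ± 0.42 (SE; adjusted p = 9.28e-14, limma). MIR831 was higher without DCL2 in plants with DCL4 (−1.58 ± 0.30) and lower without DCL2 in plants lacking DCL4 (3.39 ± 0.26), a difference of 4.97 ± 0.43 (adjusted p = 2.86e-17, limma). LDOX went the other way, with a larger fall where DCL4 was present (3.36 ± 0.54 against 1.53 ± 0.31, adjusted p = 0.039, limma). The LDOX difference was −1.83 and did not pass without any 1 of 6 libraries (double A, B or C, triple A, B or D), at −1.71 to −1.89 with adjusted p of 0.052 to 0.0837. AGT fell without DCL2 in plants with DCL4 (1.02 ± 0.20) and rose in plants lacking it (−2.52 ± 0.23), a difference of −3.54 ± 0.31 (adjusted p = 4.07e-17, limma). NIA1, the HD-ZIP genes and the other highest loci could not be tested, and their means with DCL4 present did not exceed 239 units in ski2-2 or 140.0 in ski2-2 dcl2-1 at NIA1, NIA2 and the 5 HD-ZIP genes.

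**Figure D5:**
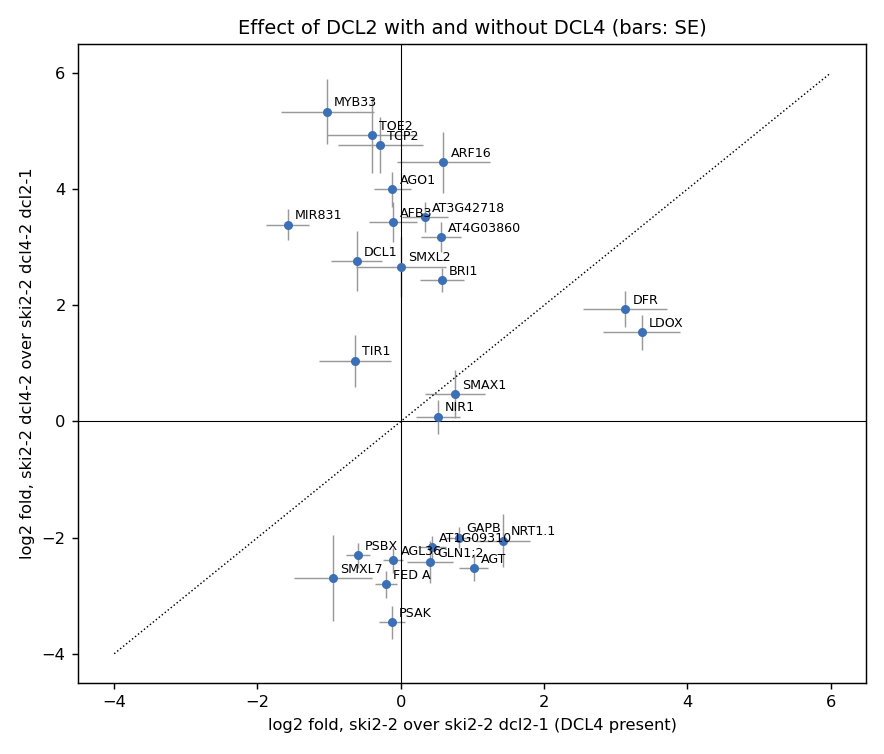
Log2 difference between plants with and without DCL2 when DCL4 is present (ski2-2 over ski2-2 dcl2-1, x axis) and when it is lost (ski2-2 dcl4-2 over ski2-2 dcl4-2 dcl2-1, y axis), with SE bars, for genes with recovered libraries. AGO1, MYB33 and TCP2 lie high on the left, LDOX and DFR are positive on both axes, and AGT, PSAK and GAPB are negative on the y axis.

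Removal of DCL2 from ein5-1 dcl4-2 is set beside these values, since EIN5 serves the other end of mRNA decay. Means at NIA1 and NIA2 were 393891 and 374800.0 units in ein5-1 dcl4-2 and 228 and 242 in ein5-1 dcl4-2 dcl2-1. SMXL5, SMXL4 and BAM3 were also high in ein5-1 dcl4-2, at 37465, 9961 and 11594 units, and the authors' deposited table gives log2 falls of 9.03, 9.14 and 10.20 without DCL2. In contrast, PHB stood at 74.3 units in ein5-1 dcl4-2 and 65.4 in its triple mutant (adjusted p = 0.959, authors' deposited table), beside 56875 and 43.2 in the ski2-2 background. REV stood at 41.5 and 54.4 units there (adjusted p = 0.138) and PHV at 38.2 and 20.4 (adjusted p = 0.152) by the authors' deposited table. The other HD-ZIP genes passed there in opposite directions. ATHB8 rose from 9.30 to 30.7 units (adjusted p = 6.47e-04) and ATHB15 fell from 13.6 to 1.18 (adjusted p = 6.37e-04), by the authors' deposited table. GUN5 rose there from 93.3 to 184 units (adjusted p = 3.97e-10, authors' deposited table), against its fall from 13371 to 316. BRI1, the brassinosteroid receptor, showed the reverse contrast in level, with 17166 units in ein5-1 dcl4-2 and libraries of 117, 103, 218 and 133 units in ski2-2 dcl4-2. None of these high genes had recovered libraries in all 4 genotypes, so the difference between the backgrounds was not tested for them.

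Where it could be tested, the interaction depended on scale. As deposited, 222 of 16627 genes (1.34%) fell more in the ski2-2 background and 2456 (14.8%) fell less or turned, around a median log2 difference of −0.89 over all genes. After quantile normalization the counts were 619 (3.87%) and 828 (5.17%) of 16011, around a median of −0.0034. ARF16, a target of miR160, fell more in ski2-2 dcl4-2 by 3.91 as deposited and by 4.67 after quantile normalization, with adjusted p of 0.00217 and 4.16e-04 by limma, and did not pass with a pseudocount of 0.1 (adjusted p = 0.0986). Its libraries stood at 35.5, 50.1, 45.2 and 47.4 units in ski2-2 dcl4-2 and at 1.52, 1.60, 1.71 and 0 in the triple mutant, and its means in the ein5-1 background were 3.02 and 1.36. AGO1 also fell more in the ski2-2 background, by 1.87 and 2.34 (adjusted p = 0.0117 and 0.00205, limma), but did not pass with the libraries scaled by recovered microRNA loci (1.41, adjusted p = 0.0731). TIR1 and LDOX fell more in the ein5-1 background, with differences of −2.28 and −4.12 as deposited and −1.83 and −3.98 after quantile normalization, and adjusted p of at most 0.0163 by limma.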

How the data were processed

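The authors deposited 1 table with, per genotype, the mean signal of 22-nt reads per gene, called TPM per the file headers; its denominator and its handling of reads that match several genes or either strand are not given in the sources used here. Columns of other samples left unused numbered 0. The submitters' processing notes name the TAIR10 genome, Bowtie 1.2.2 and SAMtools 1.9. The authors' deposited log2 folds, p-values and adjusted p-values come from DESeq2, per the same notes. Of 32420 gene IDs, 31722 matched RefSeq TAIR10.1, the source of names and sequences.

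Tests had been planned on library values. The table holds means, so values of single libraries were recovered from them, as whole reads multiplied by a step for each library, where 1 combination alone matched within 0.6 units of the last printed digit. Libraries were named A to D by step (1.11 to 4.74 units per read in the double and 1.52 to 1.88 in the triple mutant). Means above 185 units in the double (171 genes) and 166 in the triple mutant (114 genes) were not searched, and 44 and 34 genes below these limits were not recovered, for the most part because several combinations matched. This left 295 members outside the library test. On simulated means 99.33% and 99.54% of genes were recovered, with 0 wrong. Chi-square per gene between libraries of a genotype was 1.15 to 1.52, so no pair of libraries was alike to within sampling noise.

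Library values were compared with limma 3.58.1 (R 4.3.3, intensity trend) on log2(units + 1) for genes with a mean of at least 1, with Benjamini-Hochberg adjustment over all genes tested and a threshold of 0.05. Folds of low genes on this scale are understated. P-values measure the spread between libraries. On simulated data for this comparison, with 13966 genes, 8% of 2-fold, 68% of 4-fold and 88% of 8-fold changes were called, with 6 false calls. The changed genes had means of at least 5 units, and the simulated spread between libraries was assumed, not estimated from these libraries. These rates therefore need not hold for genes with lower means or for the real spread. Counting intervals are not given, since reads without molecular identifiers are not independent.

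Genes named were the 12 lower and 8 higher members with the largest difference in mean and a fold of at least 2, the 8 lower and 8 higher with the largest difference past the limma test with a log2 fold of at least 1 and no overlap, and the members of the lists; the text names part of these and says where a gene was chosen after its values were seen. What the text gives for other genotypes was picked that way too. Members and lists were chosen with earlier results of these data known. The 6 listed trans-acting siRNA loci were not analysed here.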

Additional observations from a re-analysis of the deposited data

Results flagged for a closer look

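Of 68 sets of 4 libraries at the genes named, 8 (11.8%) held a library far from the other 3. This was measured as its gap to the nearest library over the whole range. For normally distributed values chance gives about 1 in 20, a rate that need not hold at genes with few reads. In the triple mutant the gap was 0.926 at AT1G63130, 1.0 at ARF17 and MYB33, 0.847 at AGT, 0.859 at NIR1, 0.887 at ARF16 and 0.832 at BRI1, and in the double mutant it was 1.0 at SMXL7. At ARF17 and MYB33, and at SMXL7 in the double mutant, the gap rests on 1 library with reads against 3 at 0.

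The effect of DCL2 differed by the presence of DCL4 at 24 of the 29 named genes tested, beside 1667 of 13260 genes in all. Many of these were named for a large difference between the double and triple mutant, so their count says nothing further. Values are differences of log2 differences by limma. The fall was larger without DCL4 at MYB33 (6.37), TOE2 (5.33), TCP2 (5.05), MIR831 (4.97), ARF17 (4.496), AGO1 (4.11), ARF16 (3.87), AFB3 (3.55), DCL1 (3.37), AT3G42718 (3.18), ASN1 (3.02), SMXL2 (2.66), AT4G03860 (2.61) and BRI1 (1.86). TOE2 and ASN1 stood at 0 in all triple libraries, so their values depend on the pseudocount. With the libraries scaled by recovered microRNA loci, BRI1 fell to 0.52 (adjusted p = 0.382, limma) and SMXL2 to 1.61 (adjusted p = 0.156), and neither passed. With a pseudocount of 0.1, SMXL2 (adjusted p = 0.3, limma) and ARF16 (adjusted p = 0.132) did not pass. The difference was negative at AGT (−3.54), NRT1.1 (−3.48), PSAK (−3.33), GLN1;2 (−2.83), GAPB (−2.81), AT1G09310 (−2.61), FED A (−2.60), AGL36 (−2.29), LDOX (−1.83) and PSBX (−1.70).

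Between the ski2-2 dcl4-2 and ein5-1 dcl4-2 backgrounds 14 of the 23 named genes tested differed as deposited, beside 2678 of 16627 in all. The fall was larger with ski2-2 at ARF16 (3.91), AT4G03860 (2.88), AT3G42718 (2.83), ARF17 (2.68), AT1G63150 (2.67), AGO1 (1.87) and AT1G63130 (1.65). It was smaller or turned at NRT1.1 (−4.22), LDOX (−4.12), GLN1;2 (−2.32), TIR1 (−2.28), AGT (−1.90), AGL36 (−1.42) and AT1G09310 (−0.92). After quantile normalization AT1G09310 stood at −0.09 with an adjusted p of 0.898, AGL36 at −0.68 with 0.153 and GLN1;2 at −1.49 with 0.0677 by limma. A pseudocount of 0.1 ended the calls at ARF17 (adjusted p = 0.235, limma), ARF16 (0.0986), AT1G63130 (0.0924) and AT1G09310 (0.0627). The scale of recovered microRNA loci ended those at AT1G63130 (adjusted p = 0.134, limma), AGO1 (0.0731) and ARF17 (0.0564). Leaving out 1 library ended the call at AT1G63130 (1.49 to 1.68 in 6 of the 8 cases), ARF17 (2.55 to 2.66 in 6) and AT1G09310 (−0.96 to −0.83 in 7).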

How the results depend on the processing

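No paired analysis was possible because the columns carry no replicate numbers. Against 1673 genes called by limma (630 lower, 1043 higher in the triple mutant), a pseudocount of 0.1 gave 1060 and a fit of all 15 genotypes 3149. Leaving out 1 library at a time gave 1317 to 1658 genes, and 1658 (641 lower, 1017 higher) without the shallow double library D. With the scale set by recovered microRNA loci 1818 were called, 429 lower and 1389 higher, around a median log2 of −0.43 instead of −0.23. That scale and the scale from means of all microRNA loci (factor 0.706, log2 −0.50) shift values in opposite directions. The interaction with DCL4 held 1667 genes, 3301 with the scale of recovered microRNA loci and 1528 to 1728 with 1 library left out. The interaction with ein5-1 held 2678 genes, 1292 with a pseudocount of 0.1, 1447 after quantile normalization and 2299 to 2449 with 1 library left out. Members at least 2-fold lower numbered 1072, but 2647 with a threshold of 1 unit, 710 with 10 units, 615 with 5 added to each mean and 1810 with the factor of 0.706. Members at least 2-fold higher numbered 1845, but 4051, 994, 963 and 1157 under these alternatives. Of 30 named genes called by limma, 29 kept their call in every alternative run and SMXL7 lost it without triple library B. Many of these genes were named for passing this same test, so their count says nothing further. Of all 1673 genes called, 60.7% kept their call with a pseudocount of 0.1 and 97.4% with a pseudocount of 5. For the interactions, 254 of 264 alternatives of the named calls with DCL4 and 125 of 154 with ein5-1 kept the call, and 0 reversed. DESeq2 was not run, as the table holds no counts. The cause of these changes was not tested.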
